A study of Homo sapiens with 4 samples.

Results

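Immature lymphocytes assemble their antigen receptors with a small set of genes that mature cells no longer use. RAG1 and RAG2 form the recombinase that cuts DNA at V, D and J segments, and DNTT encodes terminal deoxynucleotidyl transferase (TdT), which adds bases without a template at the joints. PTCRA encodes the pre-TCR α chain, which pairs with a finished TCR β chain in thymocytes, while IGLL1 (λ5) and VPREB1 form the surrogate light chain that serves the same purpose in pre-B cells, with VPREB3 as a related protein. CD1A and CD1E belong to the CD1 family of lipid-antigen presenting molecules, which mark cortical thymocytes, and CD34 marks progenitors. These 10 genes, of 50868 listed in the deposited files, were taken by gene name. They were selected on known functions and with earlier results of these data in view, among them the fall of IGLL1 with JQ1, so that their values are given as a description and not as a test.

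The genes were followed in Jurkat, a human cell line established from a T-cell leukemia, of the WT genotype and named T lymphoblast in the labels. Cells received DMSO or JQ1 at 0.5 μM for 24 h, either without PHA or together with PHA at 150 ng/ml, and each of the 4 conditions was sequenced as 1 library. Values are given below in the order DMSO, JQ1, DMSO + PHA and JQ1 + PHA unless stated otherwise. JQ1 is an inhibitor of BET bromodomain proteins, and PHA is a plant lectin that activates T cells. Without replicates no difference between conditions could be tested. Library totals lay between 18620954 and 19685401 counts, and intervals are 95% exact intervals that cover counting error only. All 13 T-lineage markers examined had more than 3 counts in every library, with a summed level of 1351 to 2836 CPM (counts scaled to the library total), lowest in the JQ1 library and highest in the DMSO + PHA library. Of these 13 genes, 4 were at least 2-fold lower with JQ1, as were 8.65% of all genes tested, and 8 were in PHA-treated cells, as were 8.00% of all genes. The part of these differences in the results below was not tested. The 6 myeloid markers summed to 0.591 to 3.10 CPM and the 4 progenitor markers, CD34 included, to 15.1 to 27.7 CPM. Most of the progenitor counts were from KIT (492, 289, 333 and 312), while CD34 had 15 counts or fewer. The 9 B-lineage markers summed to 5.44 to 20.2 CPM, lower in both JQ1 libraries. CD79A had the largest count of them in each library (343, 51, 304 and 46). EBF1 went the other way, with 20, 41, 28 and 44 counts, higher with JQ1 both without and with PHA. CD24 had 5, 15, 18 and 13 counts, and PAX5 had at most 2 counts in any library. Of 4 Langerhans and dendritic cell markers, CD207 had 1 count in the DMSO library and all other values were 0.

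The members lie on 5 chromosomes of GRCh38. RAG1 (ENSG00000166349) and RAG2 (ENSG00000175097) are neighbours on chromosome 11, at 36510709 to 36593156 on the plus strand and 36575574 to 36598279 on the minus strand. DNTT (ENSG00000107447) is on chromosome 10, 96304396 to 96338564, and PTCRA (ENSG00000171611) on chromosome 6, 42915989 to 42925835, both on the plus strand. On chromosome 22 lie IGLL1 (ENSG00000128322, 23573125 to 23580308, minus strand), VPREB1 (ENSG00000169575, 22244675 to 22245515, plus strand) and VPREB3 (ENSG00000128218, 23752743 to 23754468, minus strand). CD1A (ENSG00000158477, 158254137 to 158258269, plus strand), CD1E (ENSG00000158488, 158353696 to 158357553, plus strand) and CD34 (ENSG00000174059, 207880972 to 207911402, minus strand) are on chromosome 1.

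The upstream sequences of 3 members are shown with the E-box letters CANNTG, to which E proteins such as E2A and HEB are known to bind. PTCRA and IGLL1 had the most matches of the members, and DNTT is shown beside them as a member with a number of matches that is common among genes. Of the 11 windows of the 10 members, 10 held at least 1 match, as did 61.8% of all windows. The printed sequences come from RefSeq (GRCh38.p14), run 5′ to 3′ on the strand of the gene, and stop where the locus begins in the deposited files. Capitals mark CANNTG, which reads the same on both strands. The match closest to the start of PTCRA and that of IGLL1 fall past this limit and are not printed.
PTCRA, chr6:42915803-42915988: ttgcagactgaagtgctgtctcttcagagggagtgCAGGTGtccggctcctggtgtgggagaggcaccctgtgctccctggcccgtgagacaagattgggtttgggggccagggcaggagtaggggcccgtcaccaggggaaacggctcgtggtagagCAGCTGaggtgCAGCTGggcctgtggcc
IGLL1, chr22:23580309-23580540: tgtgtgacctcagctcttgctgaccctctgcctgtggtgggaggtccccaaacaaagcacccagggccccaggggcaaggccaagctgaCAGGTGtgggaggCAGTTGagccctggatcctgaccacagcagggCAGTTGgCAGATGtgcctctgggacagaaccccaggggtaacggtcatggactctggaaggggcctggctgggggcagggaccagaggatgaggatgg
DNTT, chr10:96304184-96304395: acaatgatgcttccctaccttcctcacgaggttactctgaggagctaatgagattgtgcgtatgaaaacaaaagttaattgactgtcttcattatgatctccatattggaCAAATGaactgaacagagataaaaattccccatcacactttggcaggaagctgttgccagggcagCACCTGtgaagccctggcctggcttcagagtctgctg

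In the 250 bases before the RefSeq start, IGLL1 had 5 matches to CANNTG, PTCRA 4 and DNTT 2. Among 35116 RefSeq promoter windows of the same length, 0.888% held at least 5 matches, 3.35% at least 4 and 28.3% at least 2. The PTCRA window held CAGCTG 3 times, 14, 81 and 92 bases before the start, and 14.0% of all windows held it at least once. VPREB1 and VPREB3, which had almost no counts, had 3 matches each, and 10.4% of windows held at least 3. The windows of the 2 RefSeq starts of CD1A had 3 and 1, and that of CD34 had 1. RAG1 and RAG2 had 1 match each, and CD1E had 0. Unlike the printed sequences, the counted windows were not cut at the deposited loci. That of CD34 and the CD1A window with 1 match lie wholly inside the locus. Those of CD1E and RAG2 lie partly inside, and so does the match of RAG2, 21 bases before its RefSeq start. The RefSeq window of RAG1 overlaps the locus of TRAF6, which ends 436 bases before RAG1 in the deposited files. A match is a run of letters, and binding was not measured here.

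RAG1 was the member with the second-highest count in untreated cells and was lower with either agent. Its FPKM (reads scaled to gene length and library size, as deposited) was 42.9, 3.93, 11.8 and 1.18 in the 4 libraries, from 8591, 824, 2471 and 234 counts. The order of the libraries was the same for RAG2, at an FPKM of 11.3, 2.19, 4.35 and 1.33 from 1734, 352, 700 and 202 counts. DNTT was at 49.0, 7.19, 16.8 and 5.25 FPKM, from 2554, 392, 914 and 271 counts. For these 3 genes the DMSO library was highest and the JQ1 + PHA library lowest, and JQ1 alone gave a lower value than PHA alone. Fewer cells that express a gene and less RNA per cell cannot be told apart in bulk libraries.

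In the comparison of JQ1 with DMSO, RAG1 was 10.9-fold lower. The log2 ratio of its share of all counts was -3.45 (-3.55 to -3.34). DNTT was 6.81-fold lower (log2 ratio -2.77, -2.93 to -2.61) and RAG2 5.15-fold lower (-2.37, -2.53 to -2.20). In the presence of PHA, RAG1 was 9.99-fold lower with JQ1 (-3.32, -3.52 to -3.13), RAG2 3.28-fold (-1.71, -1.95 to -1.48) and DNTT 3.19-fold (-1.67, -1.87 to -1.48). PHA by itself went the same way, with RAG1 3.64-fold, DNTT 2.92-fold and RAG2 2.59-fold lower in the DMSO + PHA library than in the DMSO library. Between the JQ1 libraries with and without PHA, RAG1 was 3.33-fold lower with PHA, against 1.65-fold for RAG2 and 1.37-fold for DNTT.

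The 4 comparisons share libraries, so they are set side by side here and not correlated. Because the same members were lower with both agents, the combined library was set against what the single agents would give if their folds multiplied. RAG1 stood at 9.17% of its DMSO level with JQ1 and at 27.5% with PHA. Their product is 2.52%, and the JQ1 + PHA library had 2.75%. The log2 ratio of JQ1 to DMSO differed by 0.13 (-0.09 to 0.35, by the delta method on the counts) between the PHA and no-PHA pairs, an interval that includes 0. DNTT stood at 14.7% with JQ1, 34.2% with PHA and 10.7% with both, against a product of 5.02%. Its log2 ratio with PHA was 1.09 (0.85 to 1.34) higher than without, so that JQ1 and DMSO differed less in PHA-treated cells. RAG2 showed the same direction, with 11.8% remaining against a product of 7.49% and a difference of 0.65 (0.37 to 0.93). For RAG2 and DNTT the interval excludes 0 by counting error, and no replicate speaks to the spread between cultures.

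The recombinase partners thus did not keep a fixed proportion. There were 4.95 RAG1 counts per RAG2 count (4.70 to 5.22) in the DMSO library, 2.34 (2.06 to 2.66) with JQ1, 3.53 (3.24 to 3.84) with DMSO + PHA and 1.16 (0.956 to 1.41) with JQ1 + PHA. This ratio lies within a library and does not depend on scaling, and its intervals do not overlap between any of the libraries. By the annotation (GENCODE release 44), 588 of the 3502 merged exon bases of RAG2 are shared with exons of RAG1 on the other strand and 372 with exons of IFTAP. Reads from overlapping exons can be told apart only by strand, and whether the counting used strand is not given in the sources used here.

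**Figure D1:**
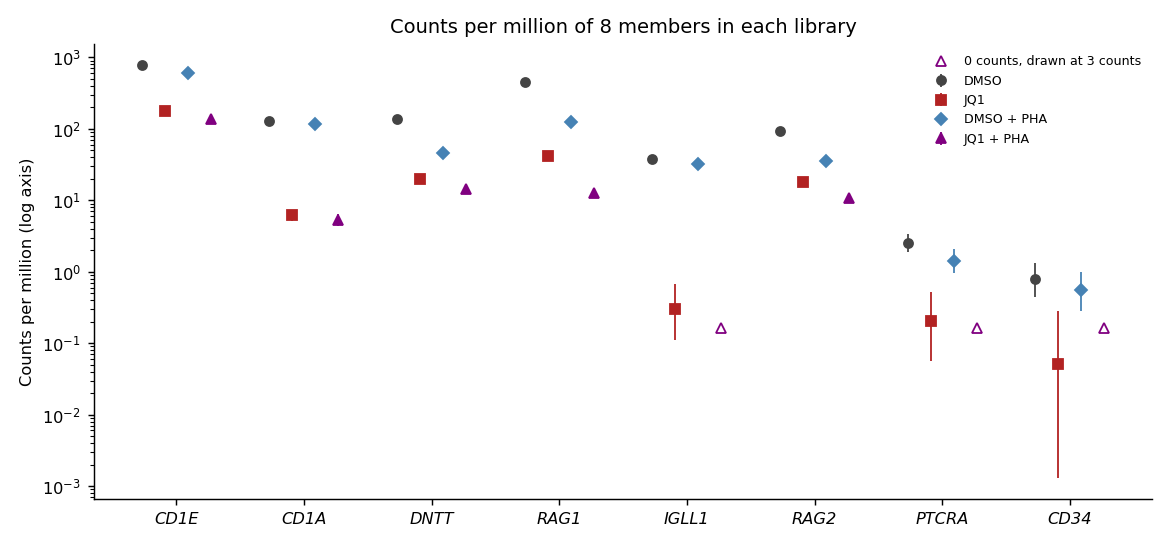
CPM (log axis) of 8 members in the DMSO, JQ1, DMSO + PHA and JQ1 + PHA libraries, 1 library each, with 95% exact Poisson intervals as bars where they exceed the symbol. Open triangles are libraries with 0 counts, drawn at the level of 3 counts (0.161 CPM). RAG1, RAG2 and DNTT step down with JQ1 and with PHA, while CD1A, CD1E and IGLL1 step down mainly with JQ1.

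IGLL1 was nearly absent with JQ1. It had 715, 6, 625 and 0 counts, or an FPKM of 21.0, 0.168, 17.5 and 0, where a count of 0 allows up to 3 counts, or 0.161 CPM. The libraries with JQ1 were low and those without it high, at 1 library per condition. Its share of counts was 125-fold lower with JQ1 than with DMSO (log2 ratio -6.96, -8.41 to -5.83). In PHA-treated cells it was 197-fold lower with 3 counts put in place of 0, and the exact interval of the log2 ratio, which allows a smaller difference, ended at -7.32. With PHA alone the log2 ratio was -0.26 (-0.42 to -0.10), a 1.20-fold lower value. IGLL1 resembles the constant segments of the λ light chain, so reads could be shared between them, and how shared reads were counted is not given in the sources used here. IGLL5, IGLC1, IGLC2, IGLC3 and IGLC7 had 0 counts in each library.

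The partner of λ5 was not seen. VPREB1 had 0 counts in all 4 libraries, which allows 0.152 to 0.161 CPM at 3 counts. The exact interval is a little wider. It ended at 0.288 to 0.305 CPM per kilobase of exon, a different unit, as the merged exons of VPREB1 hold 650 bases. No change of it was detectable at this depth. VPREB3 had 4 counts with JQ1 and 0 in the other libraries, and the interval of its log2 ratio to DMSO began at -0.66 and so included 0. CD79A, which encodes the Igα signaling chain of the B-cell receptor, had 343, 51, 304 and 46 counts. IGHM had 10 counts with DMSO + PHA and 0 elsewhere. Of the surrogate light chain genes, IGLL1 was the one with more than 4 counts in any library.

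PTCRA, the pre-TCR α chain, was at a low level. Its counts were 48, 4, 28 and 0, which is an FPKM of 1.31, 0.104, 0.731 and 0. The JQ1 libraries were again the low ones. The log2 ratio of JQ1 to DMSO was -3.65 (-5.58 to -2.20), a 12.6-fold lower value. With PHA, JQ1 gave a value 8.83-fold lower with 3 counts in place of 0, and the exact interval of the log2 ratio, which again allows a smaller difference, ended at -2.75. PHA alone gave a log2 ratio of -0.84 (-1.57 to -0.14). CD34 had 15, 1, 11 and 0 counts in the same order, and its interval for JQ1 against DMSO was -9.37 to -1.27. For CD34 the difference with PHA alone was not detectable at this depth (log2 ratio -0.51, -1.78 to 0.71).

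Both CD1 members were lower with JQ1, CD1A by a larger fold than CD1E. CD1A was at 62.1, 2.96, 55.2 and 2.54 FPKM, from 2449, 122, 2278 and 99 counts. CD1E was at 91.0, 21.0, 70.7 and 16.3, from 14626, 3529, 11883 and 2591 counts. CD1A was 21.0-fold lower with JQ1 without PHA (log2 ratio -4.39, -4.67 to -4.13) and 21.8-fold with PHA (-4.44, -4.75 to -4.15). CD1E was 4.33-fold lower (-2.12, -2.17 to -2.06) and 4.34-fold lower (-2.12, -2.18 to -2.06). The JQ1 ratio thus differed between the pairs by -0.05 (-0.44 to 0.34) for CD1A and by -0.00 (-0.08 to 0.08) for CD1E, intervals that include 0. There were 5.97 CD1E counts per CD1A count with DMSO and 5.22 with DMSO + PHA, against 28.9 (24.1 to 34.9) with JQ1 and 26.2 (21.4 to 32.3) with JQ1 + PHA.

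The CD1 members differed less between libraries with and without PHA. Without JQ1, the log2 difference with PHA was -0.17 (-0.25 to -0.09) for CD1A and -0.36 (-0.40 to -0.33) for CD1E. In JQ1-treated cells the difference was -0.22 (-0.62 to 0.17) for CD1A, which was not detectable at this depth, and -0.37 (-0.44 to -0.29) for CD1E. The rest of the CD1 family was also lower with JQ1. CD1B had 2297, 447, 1960 and 315 counts, CD1C had 964, 103, 1437 and 83, and CD1D had 638, 228, 539 and 234. On the scale of FPKM + 0.1, the log2 ratio of JQ1 to DMSO was -3.25 for CD1C, -2.42 for CD1B and -1.53 for CD1D, and with PHA it was -3.98, -2.54 and -1.11. CD1C was the family member with a higher value in the DMSO + PHA library than in the DMSO library, by a log2 ratio of 0.51. CD1D, the member that presents lipids to NKT cells, had the smallest fall with JQ1.

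**Figure D2:**
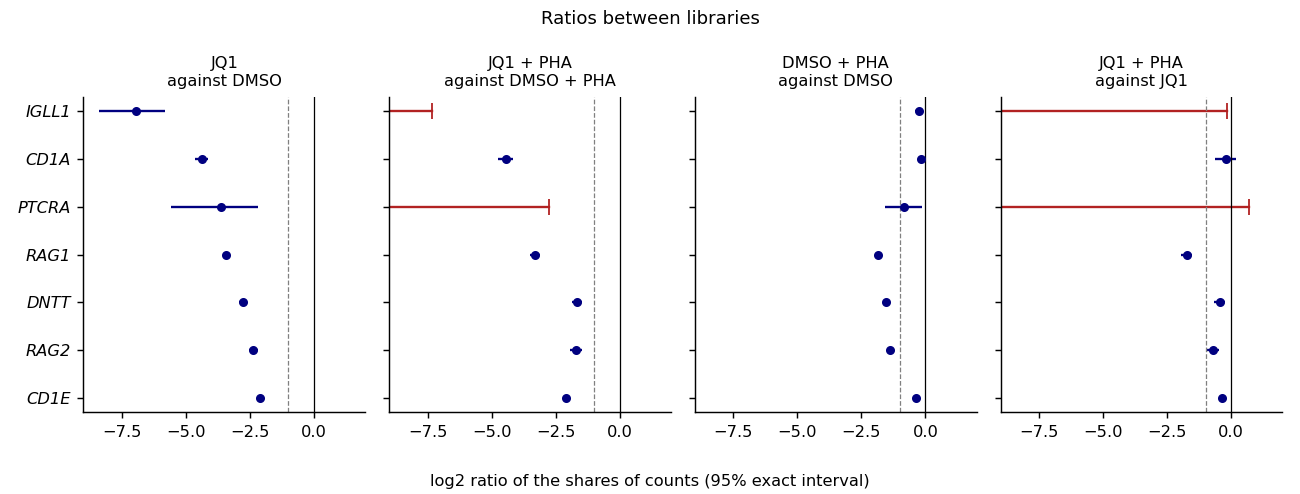
Log2 ratios of count shares for 7 members in 4 comparisons of single libraries, with 95% exact intervals as bars and a dashed line at 2-fold lower. Red lines run down from the upper bound of the interval where the first-named library had 0 counts. All 7 members lie to the left of the dashed line in both JQ1 comparisons, and with PHA in DMSO-treated cells RAG1, RAG2 and DNTT do.

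By the fold threshold of 2 on FPKM with a pseudocount of 0.1, 6 of the 10 members passed the filter, an FPKM averaging 1 or more over the libraries (RAG1, RAG2, DNTT, IGLL1, CD1A and CD1E). Of these, 6 were lower with JQ1 than with DMSO and 0 higher, where 8.65% of all 11503 genes were lower and 5.22% higher. In the presence of PHA, 6 were lower and 0 higher, where 8.00% of genes were lower and 3.69% higher. The members were chosen with these falls known, and nothing is read from the difference. PHA against DMSO gave 3 lower and 0 higher, against 1.19% and 2.10% of all genes. In JQ1-treated cells, PHA gave 2 lower (RAG1 and IGLL1) and 0 higher, against 1.03% and 1.04%, and for IGLL1 this rests on 6 counts and 0 counts. The median log2 ratio of the 6 members was -3.08, -2.66, -0.86 and -0.56 in these comparisons, while that of all genes was -0.01, -0.02, -0.01 and -0.00.

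Counted from the most negative log2 ratio of FPKM + 0.1 among the 11503 genes, IGLL1 was at rank 1 with JQ1 and at rank 3 with JQ1 in PHA-treated cells. CD1A was at ranks 15 and 17, RAG1 at 47 and 55, DNTT at 76 and 289, RAG2 at 134 and 294, and CD1E at 172 and 179. With PHA alone RAG1 was at rank 32, DNTT at 42 and RAG2 at 55, whereas CD1E was at 1033, IGLL1 at 1762 and CD1A at 2783.

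**Figure D3:**
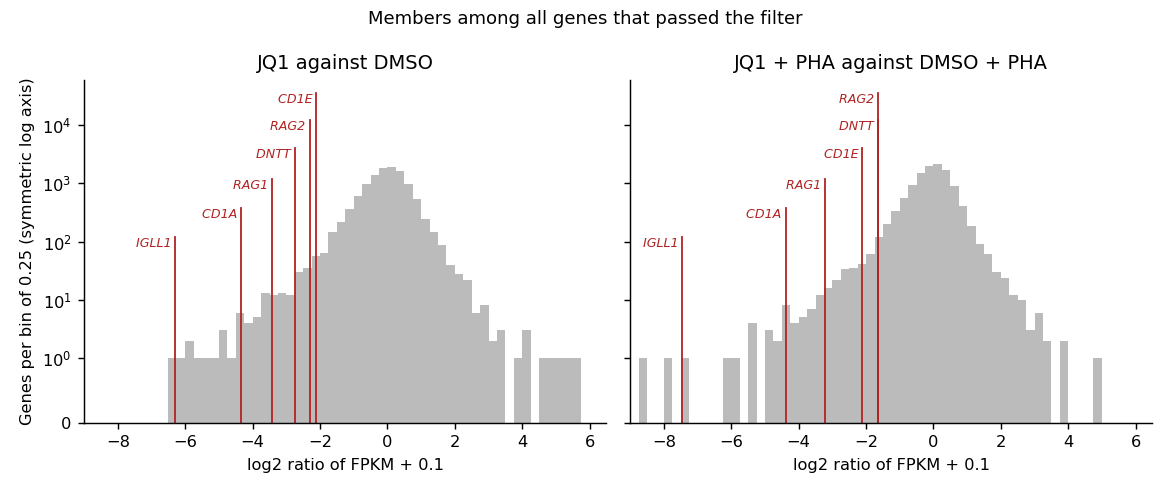
Histogram of the log2 ratio of FPKM + 0.1 for 11503 genes in bins of 0.25 (symmetric log axis of gene number), for JQ1 against DMSO (left) and JQ1 + PHA against DMSO + PHA (right), with red lines at the 6 members that passed the filter. The members stand in the left tail, with IGLL1 at -6.30 and -7.46.

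Levels of different members were compared per kilobase of merged exons in GENCODE release 44, because the length implied by the deposited FPKM was larger than the merged exons for each of the 9 members with counts. It was 8170 bases against 3502 for RAG2, 10655 against 8069 for RAG1 and 1810 against 898 for IGLL1. For CD1E it was 8543 against 2203, which is also more than the 3858 bases that its locus spans. On this scale (CPM per kilobase), CD1E was the highest member in each library, at 353 with DMSO and 63.2 with JQ1 + PHA. In the DMSO library CD1A followed at 72.0 (69.1 to 74.9) and DNTT at 69.3 (66.6 to 72.0), whose intervals overlap, then RAG1 at 56.6, IGLL1 at 42.3, RAG2 at 26.3 and PTCRA at 2.18. With JQ1, DNTT was second at 10.2, and RAG1 at 5.19 (4.84 to 5.56) and RAG2 at 5.11 (4.59 to 5.67) overlapped on this scale. CD1A came after them at 3.43. VPREB3 at 0.359 (0.0977 to 0.918, from 4 counts), IGLL1 at 0.340 (0.125 to 0.739) and PTCRA at 0.174 (0.0473 to 0.444) had overlapping intervals. With DMSO + PHA, CD1A at 64.0 and IGLL1 at 35.4 stood above DNTT at 23.7, RAG1 at 15.6 and RAG2 at 10.2. With JQ1 + PHA, RAG2 at 3.10 (2.69 to 3.56) and CD1A at 2.94 (2.39 to 3.58) overlapped, and RAG1 had the lowest level above 0, at 1.56. RAG1 went from the fourth to the last of the 5 members still detected. The place of RAG2 depends on the length used. By deposited FPKM, RAG1 was at 3.93, CD1A at 2.96 and RAG2 at 2.19 with JQ1. With JQ1 + PHA, CD1A was at 2.54 FPKM and RAG2 at 1.33. Reads from the exons that RAG2 shares with RAG1 and IFTAP may also enter its level.

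The genes on either side of the members, among those that passed the filter, included 18 that are not members. Of these 18, 5 were at least 2-fold lower with JQ1 in both comparisons. Among all genes, 8.65% were lower without PHA and 8.00% with PHA, and the share lower in both was not computed. One of the 5 neighbours is IFTAP (C11orf74 in the files), which overlaps RAG2 on the other strand and had 325, 3, 67 and 3 counts. TRAF6, on the other side of the RAG locus, had an FPKM of 5.34, 6.78, 4.92 and 6.76. The RAG genes and IFTAP were therefore low where TRAF6 was not. KB-208E9.1, which lies 571 bases from the 5′ end of IGLL1, was at 3.79 FPKM with DMSO and 2.40 with DMSO + PHA, was listed at 0 with JQ1, and was at 0.0497 with JQ1 + PHA. BCR, 255087 bases to the other side of IGLL1, was at 5.27, 5.76, 5.70 and 6.24 FPKM. The other 3 are CD1B, CD1C and RP11-144L1.4, the last 116900 bases past CD1E. The neighbours of DNTT, PTCRA, VPREB1, VPREB3 and CD34 did not fall 2-fold with JQ1, and ZNF518A next to DNTT was higher with JQ1, with a log2 ratio of 1.42 without PHA and 0.74 with PHA, as was LL22NC03-2H8.5 next to VPREB1 (1.40 and 1.39).

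Among the same genes, those with the most similar pattern over the 4 libraries were found by the root mean square distance of centred log2 FPKM + 0.1. DNTT and RAG2 were among each other's 3 nearest, at a distance of 0.16, and both shared DCLK3 (0.14 from RAG2 and 0.26 from DNTT) and RP11-86K22.2. The genes nearest to CD1E were HOXB7, GAS2 and RRS1, at 0.05 to 0.09, and those nearest to CD1A were RP11-420K14.1, CD244 and RP11-542C16.2, at 0.12 to 0.23. RAG1 had no gene closer than 0.44 (CXorf49), and IGLL1 none closer than 0.82, with ENSG00000253926, CST7 and SERPINB2 as the nearest. The JQ1 libraries had 6 and 0 counts of IGLL1, so its distances depend on the pseudocount of 0.1. CD244 and RP11-542C16.2 were under 0.1 FPKM in both JQ1 libraries, so their distances from CD1A depend on the pseudocount as well.

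The recombination pathway also needs the proteins that rejoin the cut ends. Of 16 genes for end joining and the response to the breaks, 14 passed the filter. With JQ1, 0 were 2-fold lower and 1 was higher (H2AX), with a median log2 ratio of -0.25 against -0.01 for all genes. With JQ1 in PHA-treated cells 1 was lower (XRCC4) and 1 higher (H2AX), with a median of -0.12 against -0.02. Over all genes tested the shares were 8.65% (lower) and 5.22% (higher), and in PHA-treated cells 8.00% and 3.69%, so that these counts are near the background. PRKDC, the catalytic subunit of DNA-PK, was at an FPKM of 70.5, 65.3, 68.3 and 65.6 over the libraries. XRCC4, the partner of LIG4, was at 5.34, 2.76, 5.88 and 2.26, and H2AX, the histone variant phosphorylated at breaks, at 13.6, 32.7, 11.8 and 34.9. LIG4 had log2 ratios of -0.55 and -0.88 in the JQ1 comparisons. HMGB2, a cofactor that bends DNA for the recombinase, had log2 ratios of 0.80 and 0.94.

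Of 29 transcription factors and their inhibitors known to act in early lymphoid cells, 20 passed the filter. With JQ1, 5 were at least 2-fold higher (ID1, ID2, ID3, FOXO1 and LEF1) and 2 lower (ETV6 and TCF7), and in PHA-treated cells 4 were higher (ID1, ID2, ID3 and FOXO1) and 1 lower (MYB). The shares of all genes were 5.22% higher and 8.65% lower, and 3.69% and 8.00% in PHA-treated cells, so that the number lower is near the background. The median of the list was 0.24 and -0.03. ID1 was at an FPKM of 10.5, 50.2, 10.2 and 51.8. ID2 was at 0.611, 3.73, 0.733 and 5.53, from 51, 326, 64 and 457 counts, and ID3 at 17.0, 61.3, 22.4 and 65.7. All 3 encode proteins that bind E proteins and keep them from DNA, and all were higher in the libraries with JQ1, with log2 ratios between 1.55 and 2.76. Of the E proteins themselves, TCF3 (E2A) had small log2 ratios of -0.29 and -0.14 and TCF12 (HEB) of 0.04 and -0.11. TCF4, also an E protein, did not pass the filter and had 133, 226, 186 and 179 counts. Its log2 ratios of count shares were 0.70 (0.38 to 1.02) and 0.02 (-0.28 to 0.33). FOXO1, which is known to activate RAG transcription in B-lineage cells, was at 0.845, 3.36, 1.09 and 3.09 FPKM. It was higher with JQ1, where RAG1 and RAG2 were lower. RAG1 and RAG2 were also lower with PHA, but there the intervals of FOXO1 included 0. Its log2 ratios of count shares with PHA were 0.37 (-0.03 to 0.77) without JQ1 and -0.12 (-0.34 to 0.09) with JQ1. Whether any of these factors has a part in the lower values was not tested.

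Some other surface and receptor genes of thymocytes were lower with JQ1. Of 17, 12 passed the filter. With JQ1, 5 were 2-fold lower (CD2, CD3E, CD4, CD5 and IL7R) and 0 higher, and with JQ1 in PHA-treated cells 6 were lower (CD2, CD3E, CD247, CD5, CD28 and IL7R) and 0 higher, with medians of -0.83 and -0.91, where 8.65% and 8.00% of all genes were lower. CD2, an adhesion receptor, was at an FPKM of 21.4, 4.31, 28.2 and 3.96. CD5, which damps TCR signaling, was at 14.6, 4.89, 24.5 and 5.90, and IL7R at 1.68, 0.622, 1.66 and 0.550. CD28, the costimulatory receptor, was at 6.70, 5.36, 19.1 and 7.11, with its highest value in the DMSO + PHA library. The most negative log2 ratios of this list, -2.29 and -2.80 for CD2, were smaller in size than those of IGLL1, CD1A and RAG1 in both comparisons. They were larger than those of CD1E in both (-2.11 and -2.11). Those of RAG2 (-2.31 and -1.64) and DNTT (-2.75 and -1.66) were larger than CD2 without PHA and smaller with PHA. Without PHA, the interval of the CD2 ratio of count shares (-2.56 to -2.08) overlapped those of RAG2 (-2.53 to -2.20) and CD1E (-2.17 to -2.06). CD2 could therefore not be ordered against RAG2 and CD1E there.

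**Figure D4:**
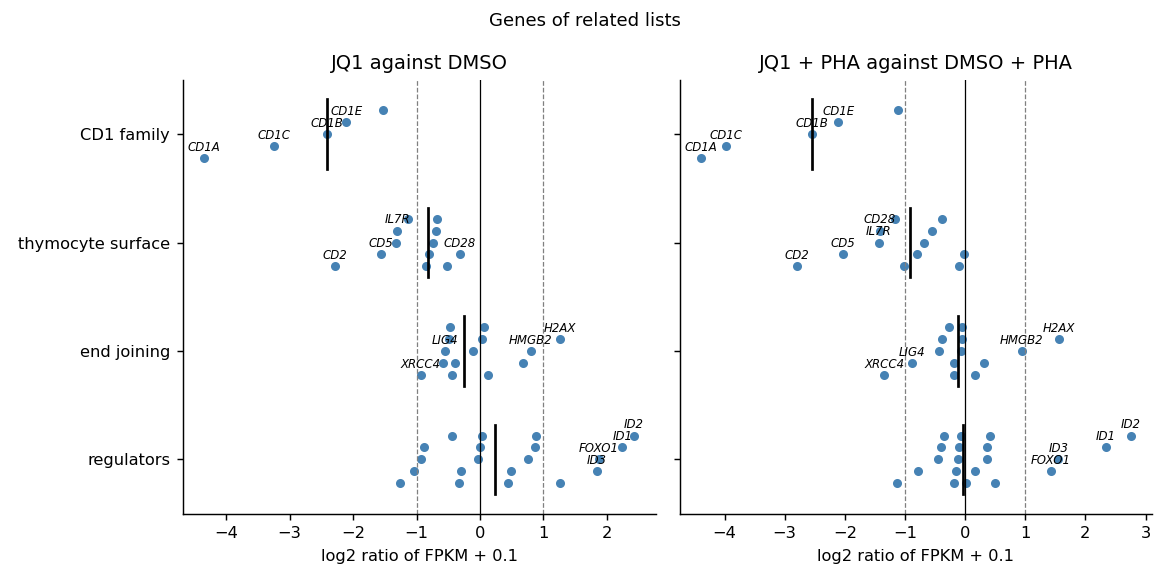
The log2 ratio of FPKM + 0.1 (x axis) for genes of 4 lists that passed the filter, for JQ1 against DMSO (left) and JQ1 + PHA against DMSO + PHA (right). Each point is a gene, offset vertically for legibility, black bars are list medians, dashed lines mark 2-fold, and the 4 genes with the largest change in either comparison are named. All 5 CD1 genes, of which CD1A and CD1E are members, lie left of the lower dashed line, and ID1, ID2, ID3 and FOXO1 right of the upper one. Of all genes, 8.65% (left panel) and 8.00% (right panel) were at least 2-fold lower, and 5.22% and 3.69% higher.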

How the data were processed

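RNA-seq of 4 Jurkat libraries, 1 per condition, was used. The deposited counts are reads per gene without normalization, and the deposited FPKM are those counts scaled by the authors to a gene length and a library total. Reads were aligned to GRCh38 with Hisat2 2.0.4. The submitters' processing notes also name TopHat2 2.0.9 and Cufflinks 2.1.1. The counting program, its strand setting and the annotation release are not given in the sources used here, and the library kit is named as a stranded kit in the paper and as VAHTS Universal V6 in the labels. Replicates were not available, so the intervals say nothing of the spread between cultures.

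The 10 members were matched by gene name, and 111 of 111 symbols on all lists were matched by Ensembl identifier. Of 50868 identifiers, 49659 are in GENCODE release 44, from which merged exon lengths and overlaps were taken. Upstream sequences are from RefSeq (GRCh38.p14), which held all 10 members. Log2 ratios of FPKM used a pseudocount of 0.1 and a filter of a mean FPKM of at least 1. Intervals are 95% Clopper-Pearson intervals of the ratio of shares, or exact Poisson intervals for levels. Where a library had at most 3 counts, the fold was computed with 3 counts in its place, which is not the end of the exact interval. A difference of log2 ratios was computed only where each library had at least 20 counts.

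Members and lists were chosen with earlier results of these data known. All members were to be named, with the 3 genes of most similar pattern for each member that passed the filter, the nearest gene on either side, and the 4 genes of each list with the largest change with JQ1. Further genes, such as PRKDC, were picked for the text with their values in view. Simulated data were used to test the steps. Alternatives were the pseudocount, filter, fold threshold and the scaling (TMM in edgeR 4.0.16, size factors in DESeq2 1.42.0, both under R 4.3.3). Ratios and intervals were computed with scipy 1.17.1 and pandas 2.3.3 in Python 3.11.15.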

Additional observations from a re-analysis of the deposited data

How the results depend on the processing

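In both JQ1 comparisons, between 4 and 8 members passed the threshold under every alternative run, and the number higher was 0 except for VPREB3, with 4 counts against 0, when no filter was used. For PHA against DMSO the count of 3 became 0 at 4-fold. For JQ1 + PHA against JQ1 the count of 2 became 1 with a pseudocount of 1, 4 without a filter, 3 with a mean FPKM of at least 0.1, 3 at 1.5-fold and 0 at 4-fold. The gene added at 1.5-fold was RAG2, with 352 and 202 counts. Of 132 recomputed log2 ratios of single members, 0 changed sign where the interval excluded 0, 114 stayed within the counting interval, and 18 left it, all with a pseudocount of 1, which pulls low values towards 0. TMM and DESeq2 scaling shifted log2 ratios by -0.02 to 0.06. No paired analysis was possible because each condition has 1 library. Depth limits VPREB1, VPREB3, CD34 and PTCRA, which had 48 counts or fewer in any library.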

Other observations

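Some early lymphoid genes had values that stand outside the comparisons above. LMO1, a partner of TAL1 in T-cell leukemia, had 83, 15, 44 and 29 counts in the order used above. ERG, an ETS factor of progenitors, had 71, 5, 41 and 8 counts. GATA3, which drives T-lineage commitment, was at an FPKM of 4.40, 8.21, 9.33 and 9.40, so that only the DMSO library was low. TCF7 was at 17.6, 8.47, 19.2 and 21.4 FPKM, and only the JQ1 library was low, while the related LEF1 was at 33.9, 81.5, 62.0 and 82.7. LMO1 and ERG had a mean FPKM under 1, and none of these differences has a replicate.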
